A study of Mus musculus with 16 samples.

Results

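The comparison set jejunal enteroids that carry the point mutation G519R in the motor protein MYO5B against enteroids that lost MYO5B, in 4 MYO5B(G519R) and 4 MYO5BΔIEC cultures, which are 8 of the 16 cultures of the series. The members were taken by their labels, as the cultures of these 2 groups that had no Compound-1, and the fit held these 2 groups alone. Enteroids are epithelial cultures grown from intestinal crypts, here from the jejunum of adult mice, with 4 mice in each group. Both groups carried Vil1-CreERT2, a tamoxifen-inducible Cre recombinase driven by the villin promoter of intestinal epithelial cells. MYO5BΔIEC enteroids were Myo5b flox/flox, so that Cre removed both alleles, and MYO5B(G519R) enteroids were Myo5b flox/G519R, so that Cre removed the floxed allele and left the mutated one. Both were passaged 2 times, given 1 µM 4-OH-tamoxifen for 24 h in culture, and then kept for 2 days in a medium low in Wnt ligands and EGF that lets crypt cells differentiate. The labels give a vehicle for the MYO5BΔIEC cultures and no treatment for the MYO5B(G519R) cultures, so vehicle and genotype cannot be told apart. Control enteroids and MYO5BΔIEC enteroids given 100 nM Compound-1, an agonist of the lysophosphatidic acid receptor LPAR5, are set beside the values as levels only. The methods describe the controls in 2 ways, as flox/flox cultures given the tamoxifen solvent and as healthy littermates.

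MYO5B is an actin-based motor that binds RAB11A and moves recycling endosomes to the apical membrane of the enterocyte, where they deliver transporters and hydrolases of the brush border. Loss of MYO5B causes microvillus inclusion disease, in which the brush border is sparse, apical transporters stay inside the cell, and diarrhea begins in infancy. The G519R substitution lies in the motor head, and the mutated protein is still made. The comparison therefore asks whether an epithelium with a mutated motor holds different RNA from one without the motor.

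Between 31466387 and 34448343 reads were counted on genes in the MYO5B(G519R) cultures and between 27804968 and 31999244 in the MYO5BΔIEC cultures. A count of 0 allowed a level of up to 0.0871 to 0.108 counts per 1000000 counted reads (CPM) in these 8 cultures, for counting error only. The cultures were epithelial by their markers: the 11 enterocyte markers summed to 7794 to 12469 CPM in MYO5B(G519R) and to 9334 to 16878 CPM in MYO5BΔIEC enteroids. Of the fibroblast markers 3 of 9 passed the count filter, and the list summed to 12.7 to 18.5 CPM in MYO5B(G519R) and 9.16 to 43.4 CPM in MYO5BΔIEC enteroids. Of the immune cell markers 4 of 7 passed, with sums of 5.58 to 7.13 and 6.32 to 11.9 CPM, and of the endothelial markers 3 of 5, with 1.88 to 2.28 and 1.08 to 2.64 CPM. Vim (log2 difference -0.67, SE 0.38), Cd68 (-0.62, SE 0.31) and Vwf (0.46, SE 0.36) had overlapping groups, and without ΔIEC culture 4, 2 and 1 in turn their estimates were -0.17, -0.40 and 0.27. Ptprc, Cd3e, Cd79a, Pdgfra, Col1a2, Cdh5 and Kdr were among the markers below the filter. Markers of the same lists that passed it were Vim, Col1a1 and Pdgfrb for fibroblasts and Cd68, Csf1r, Lyz2 and Itgam for immune cells. For endothelial cells they were Vwf, Pecam1 and Tek. The mitochondrially encoded share of counts was 4.69% ± 0.487 (SD, n = 4) in MYO5B(G519R) and 5.25% ± 1.13 (SD, n = 4) in MYO5BΔIEC enteroids, a difference of -0.554 percentage points that did not pass an exact two-sided permutation test (p = 0.486, smallest possible 0.0286).

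The cultures did not fall apart by genotype. The correlation of log2 levels was 0.954 to 0.987 between a MYO5B(G519R) and a MYO5BΔIEC culture, 0.972 to 0.989 among the former and 0.963 to 0.979 among the latter, as a description across genes that share a library. The first principal component held 36.3% of the variance and was positive in the cultures from female donors: G519R culture 3 and ΔIEC cultures 2 and 3, which expressed Xist, the RNA of the inactive X chromosome, at 1289 to 1554 CPM, scored 26.2, 36.8 and 66.1, while the 5 cultures from male mice scored -60.2 to -10.8. It did not separate the genotypes in an exact two-sided permutation test (p = 0.343), and it held 35.1% of the variance over autosomes alone. G519R culture 3 was the only MYO5B(G519R) culture from a female donor and stood apart from the other 3 in many genes below, so lists are also given without it, within male cultures, and with donor sex in the fit. In bulk RNA, fewer cells of a type and less RNA per cell cannot be told apart.

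Myo5b itself, on chromosome 18, did not distinguish the groups. Its level was 139, 153, 173 and 136 CPM in the MYO5B(G519R) cultures and 135, 109, 169 and 101 CPM in the MYO5BΔIEC cultures. The ranges overlapped, with ΔIEC culture 3 among the highest of the 8. The estimate was a log2 difference of 0.23 (SE 0.16, 95% interval -0.12 to 0.58), with an edgeR adjusted p of 0.838. The control mean was 189 CPM and the mean with Compound-1 was 111 CPM. Counts over the whole gene hold transcripts without the floxed part as well as intact ones, so this level does not measure how much of the motor was lost.

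Across the transcriptome 1 gene of the 17943 tested passed the adjusted threshold of 0.05 in edgeR's quasi-likelihood test, 0.00557% of all, and it was lower in MYO5B(G519R) enteroids. At an unadjusted p under 0.05, 352 genes were higher (1.96%) and 420 lower (2.34%) in MYO5B(G519R) enteroids, which together are 772 genes (4.3%). Where no gene differs, such a p is reached by a share of about 0.05, so this count is no more than chance gives. The 4 values of 1 group all lay above the 4 of the other in 149 genes higher in MYO5B(G519R) (0.83%) and in 183 genes lower (1.02%). Labels dealt at random split the cultures this way, in either direction, with a chance of 0.0286. The counts without overlap were not above that share, with the same limit that genes vary together. Estimates were spread about 0, with 8564 above, 9379 below and a median of -0.01.

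The intervals show how large a difference could have been missed. The 95% interval of the log2 difference lay within 1 unit of 0, which is within 2-fold either way, for 12163 genes (67.8%). Among the 13513 genes with a mean of at least 1 CPM it did so for 11863 (87.8%), and within 0.5 units for 6428 (47.6%). Above 10 CPM the share within 1 unit was 96.1% of 9593 genes, and under 1 CPM it was 6.77% of 4430, so for most rare transcripts the depth left wide intervals. Estimates beyond 1 log2 unit numbered 524 in all, 65 at a mean of at least 1 CPM and 12 at 10 CPM or more.

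**Figure D1:**
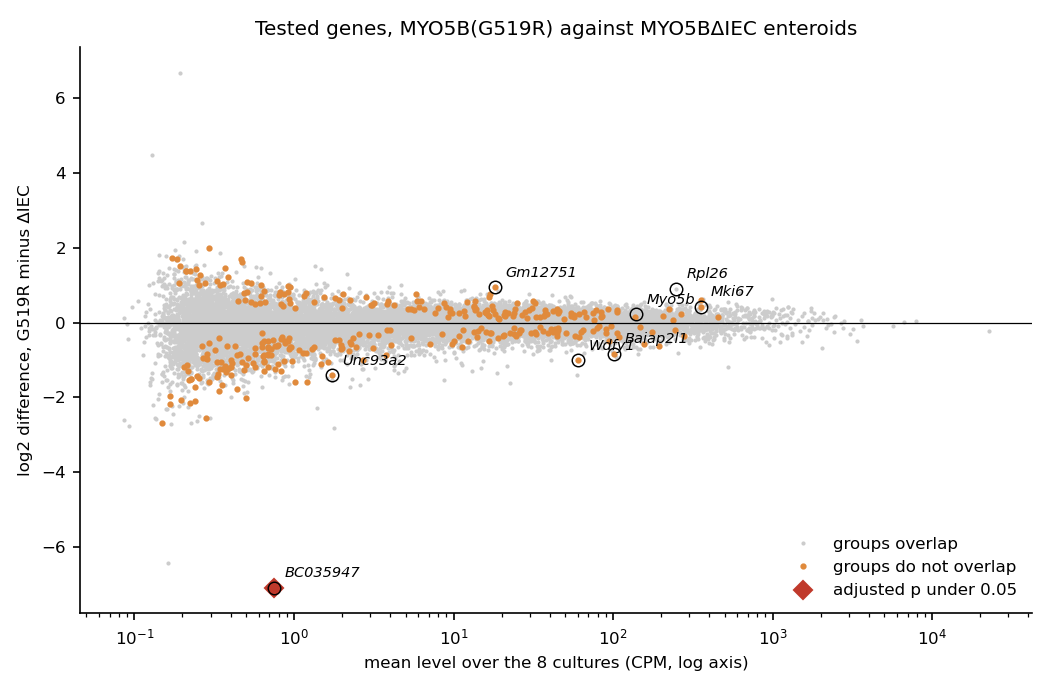
Each point is 1 of the 17943 tested genes, with its mean level over the 8 cultures in CPM on a log axis and its log2 difference, MYO5B(G519R) minus MYO5BΔIEC, on the vertical axis. Orange points are genes whose 4 and 4 values did not overlap, and the red diamond is BC035947, the gene past the adjusted threshold, which has the lowest estimate, at a level below 1 CPM.

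The gene that passed was BC035947 (ENSMUSG00000090486), a protein-coding gene of chromosome 1 on the minus strand (GRCm38, chr1:78497026-78512158). It was at 0, 0, 0 and 0.0302 CPM in the MYO5B(G519R) cultures and at 1.71, 1.71, 1.80 and 0.781 CPM in the MYO5BΔIEC cultures. The groups were far apart, and all but 1 read of the pair of groups came from MYO5BΔIEC cultures. In raw counts these were 191 reads in MYO5BΔIEC against 1 in MYO5B(G519R) enteroids, a ratio of 204 per counted read (exact 95% interval 36.1 to 8086, for counting error only). Its edgeR adjusted p was 0.011, and its fitted log2 difference of -7.09 depends on the small count added to zeros and is no bound. The mean level was 0.049 CPM in control enteroids, and it was 1.51, 1.13, 1.35 and 1.51 CPM in the MYO5BΔIEC cultures given Compound-1. Thus the 8 knockout cultures were all at 0.781 CPM or more and the other 8 cultures at 0.0961 CPM or less. The call was lost with limma on log2(FPKM + 1) (adjusted p = 0.418) and on log2(FPKM + 0.1) (adjusted p = 0.0597). It was also lost in edgeR without G519R culture 1, 2, 3 or 4 (adjusted p = 0.0841, 0.0865, 0.0932 and 0.129), without ΔIEC culture 1 or 2 (adjusted p = 0.071 and 0.0728) and within male cultures (adjusted p = 0.503, from 3 MYO5B(G519R) and 2 MYO5BΔIEC cultures).

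The genes next to BC035947 were then compared, in a window of 2 Mb to each side that was chosen after the values were seen. Of its 16 tested neighbours, 1 was higher and 3 lower at an unadjusted p under 0.05, against 1.96% and 2.34% of all genes, 3 did not overlap between the groups, against 0.83% higher and 1.02% lower, and the median log2 difference was -0.02. The 4 were Utp14b, 161 kb away (log2 difference 0.51), Ap1s3, 1110 kb away (-0.36), Wdfy1, 1205 kb away (-1.01) and Serpine2, 1297 kb away (-1.55). Ap1s3, a small subunit of the AP-1 clathrin adaptor, was at 17, 18.3, 20.5 and 15.9 CPM in MYO5B(G519R) and at 20.7, 21, 27.1 and 23.7 CPM in MYO5BΔIEC enteroids. Those groups just failed to meet. Serpine2, a secreted protease inhibitor, was at 0.657, 0.385, 1.88 and 0.603 CPM in MYO5B(G519R) and at 0.539, 3.98, 3.43 and 2.4 CPM in MYO5BΔIEC enteroids, and its groups overlapped through ΔIEC culture 1. The same window around Myo5b held 23 tested neighbours. Of these 2 were higher and 0 lower at an unadjusted p under 0.05, against 1.96% and 2.34% of all genes. They were Ska1, which serves chromosome segregation (log2 difference 0.39), and Rpl17, a ribosomal protein (0.60). Neither overlapped between the groups, where 0.83% of all genes were higher without overlap. The median over the window was 0.00.

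**Figure D2:**
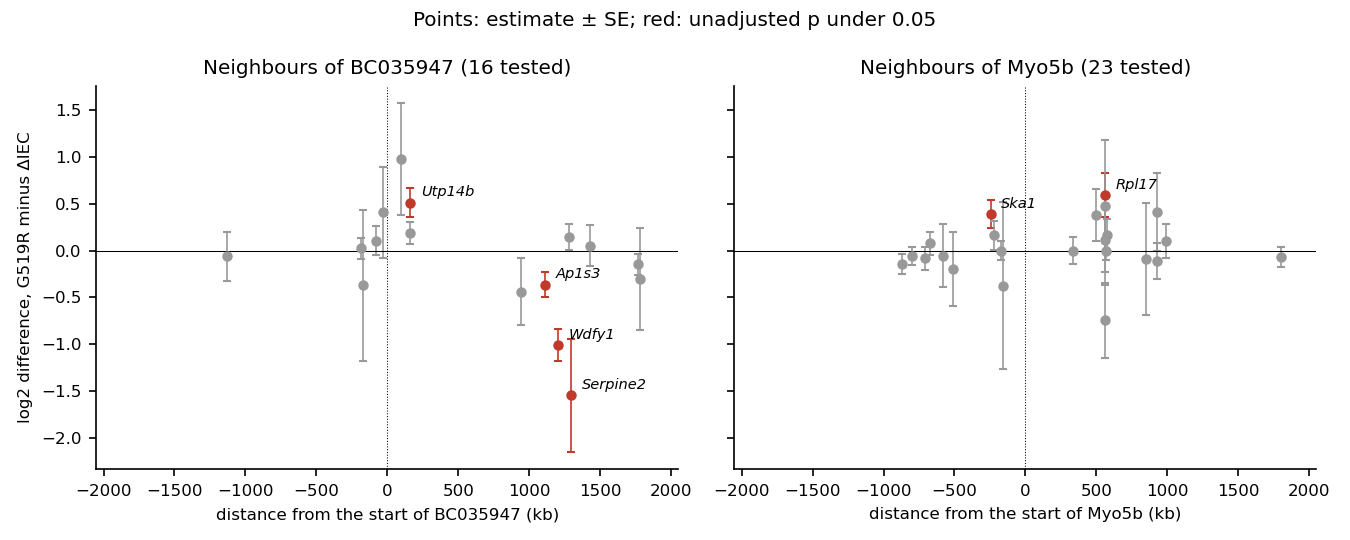
Points are tested genes within 2 Mb of BC035947 (16 genes) and of Myo5b (23 genes), by distance in kb from its start, with the log2 difference MYO5B(G519R) minus MYO5BΔIEC and its SE as bars; red marks an unadjusted p under 0.05. Wdfy1 and Serpine2, at 1205 and 1297 kb from BC035947, lie lowest, while most neighbours lie near 0.

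An on-or-off pattern like that of BC035947 was not limited to genotype. Among autosomal genes, 19 split the 8 cultures into a high and a low set with a gap of over 2 log2 units and at least 2 cultures on each side, and 1 of them, BC035947, followed the groups while 18 did not. This search was also made after the values were seen. Rpl26, a ribosomal protein gene of chromosome 11, was at 347, 335, 246 and 375 CPM in MYO5B(G519R) and at 14.4, 301, 364 and 12 CPM in MYO5BΔIEC enteroids. All MYO5B(G519R) cultures were high, but so were ΔIEC cultures 2 and 3. Ribosomal protein genes have processed copies elsewhere in the genome that share reads with them, so these levels are uncertain. Nlrp1b, an inflammasome sensor of the same chromosome, had the same split, with 2.78, 5.21, 4.51 and 2.5 CPM in MYO5B(G519R) and 0, 4.52, 7.64 and 0.03 CPM in MYO5BΔIEC enteroids. The control mean was 33.1 CPM for Rpl26, and Nlrp1b was at 0 in all control cultures. In MYO5BΔIEC cultures given Compound-1 the mean of Rpl26 was 15.8 CPM, and Nlrp1b was at 0 in all of them. Gm10020 was high in G519R culture 1 and ΔIEC culture 1 alone, at 49.5 and 44.2 CPM, against 0.629 to 1.51 CPM in the other 6 cultures. Outside the comparison it was also high in control culture 1, at 54.6 CPM, and in cultures 1 and 4 given Compound-1, at 35.6 and 39.6 CPM. Gm6356, Gm3252 and Rpl15-ps2 were high in G519R culture 1 and ΔIEC culture 1 too.

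The following genes were named by rule, as the 10 with the smallest unadjusted p in each direction among those without overlap and with a mean of at least 1 CPM. None of them passed the adjusted threshold in edgeR, so they are the foremost estimates and not calls. On the higher side the rule chose from 61 genes and on the lower side from 54.

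Mki67, the marker of cycling cells, was at 420, 431, 370 and 400 CPM in MYO5B(G519R) and at 331, 290, 273 and 310 CPM in MYO5BΔIEC enteroids. The highest ΔIEC culture was below the lowest G519R culture, which was culture 3. Its log2 difference was 0.43 (SE 0.11, edgeR adjusted p = 0.838). Chek2, the checkpoint kinase of the DNA damage response, was at 42.5, 39.8, 40.6 and 43.6 CPM against 30.2, 33.6, 36.1 and 31.4 CPM, with a log2 difference of 0.34. Cbx5, which encodes the heterochromatin protein HP1 alpha, was at 265, 263, 226 and 251 CPM against 225, 188, 172 and 191 CPM, with a log2 difference of 0.37. The spread within each group of Cbx5 was close to the gap between them, with G519R culture 3 and ΔIEC culture 1 almost touching.

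Others on the higher side had diverse roles. Gm12751, a processed pseudogene of chromosome 4 (GRCm38, chr4:34354043-34354423, plus strand), had the smallest p of this side, at 26.8, 18.1, 22.9 and 28.1 CPM in MYO5B(G519R) and 13.4, 11.9, 13.1 and 11.6 CPM in MYO5BΔIEC enteroids. Its log2 difference was 0.94 (SE 0.15, edgeR adjusted p = 0.541), and the control mean of 9.87 CPM lay below both groups. Reads of a processed pseudogene can come from its parent gene, so its level is uncertain. Hacd1, an enzyme of very long chain fatty acid elongation, was at 36.5, 42.8, 31.2 and 40.9 CPM against 23.2, 25, 25.3 and 27.7 CPM, with a log2 difference of 0.58. The 4 MYO5BΔIEC values of Hacd1 were close together and all lower, and the control mean was 61.9 CPM. Klhl23, of the kelch-like family, had a log2 difference of 0.68, Syne4, a nesprin of the outer nuclear membrane, 0.58, Utp14b, of ribosome assembly, 0.51, the glycosyltransferase-domain gene Glt1d1 0.78, and Ttc23, a gene linked to cilia, 0.41. Utp14b lies within the span of Acsl3 on the same strand (GRCm38, chr1:78658038-78671512), and reads from the overlap cannot be told apart.

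The lower estimates were led by Wdfy1 and Baiap2l1. Wdfy1, a FYVE-domain protein that binds early endosomes (GRCm38, chr1:79702262-79776143, minus strand), was at 39.1, 39.4, 44.8 and 37.6 CPM in MYO5B(G519R) and at 57.1, 98.8, 96.5 and 71.4 CPM in MYO5BΔIEC enteroids. The MYO5B(G519R) values were close together and all lower. The control cultures were at 81.6, 19.1, 17.9 and 19.8 CPM, 1 of them as high as MYO5BΔIEC enteroids, and the mean with Compound-1 was 80.2 CPM. Its log2 difference was -1.01 (SE 0.17, edgeR adjusted p = 0.541), it passed in DESeq2 (adjusted p = 0.000577) and without the count filter in edgeR (adjusted p = 0.0311).

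Baiap2l1, also called IRTKS, an I-BAR protein that binds actin at the tips of growing microvilli (GRCm38, chr5:144264526-144358112, minus strand), was at 68.8, 67.2, 81.2 and 76 CPM in MYO5B(G519R) and at 147, 150, 90.4 and 134 CPM in MYO5BΔIEC enteroids. ΔIEC culture 3 stood nearest to the MYO5B(G519R) cultures. The control cultures were at 95.6, 48.1, 50.2 and 47.4 CPM and the mean with Compound-1 was 188 CPM. The log2 difference was -0.84 (SE 0.16, edgeR adjusted p = 0.838), and it passed in DESeq2 (adjusted p = 0.0101) and in edgeR without ΔIEC culture 3 (adjusted p = 0.0326, log2 difference -0.96).

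Reg4, a secreted lectin of enteroendocrine and deep crypt secretory cells, was at 112, 110, 134 and 143 CPM in MYO5B(G519R) and at 161, 166, 178 and 240 CPM in MYO5BΔIEC enteroids, with a log2 difference of -0.58. Cyp2c55, a cytochrome P450, was at 140, 157, 180 and 128 CPM against 199, 200, 323 and 220 CPM, with a log2 difference of -0.64. For both genes the control mean, 311 CPM for Reg4 and 336 CPM for Cyp2c55, lay above every one of the 8 cultures. Pde8a, a phosphodiesterase that breaks down cAMP, was at 1.37, 0.621, 1.14 and 0.633 CPM against 1.41, 2.37, 2.02 and 2.28 CPM, with a log2 difference of -1.10. The groups of Pde8a nearly touched, at G519R culture 1 and ΔIEC culture 1. Unc93a2 had a log2 difference of -1.40, the leucine-rich repeat gene Lrrc27 -0.76, the long noncoding RNA 4933404O12Rik -0.67, the annexin Anxa9 -0.59 and the transmembrane protein gene Tmem267 -0.56.

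**Figure D3:**
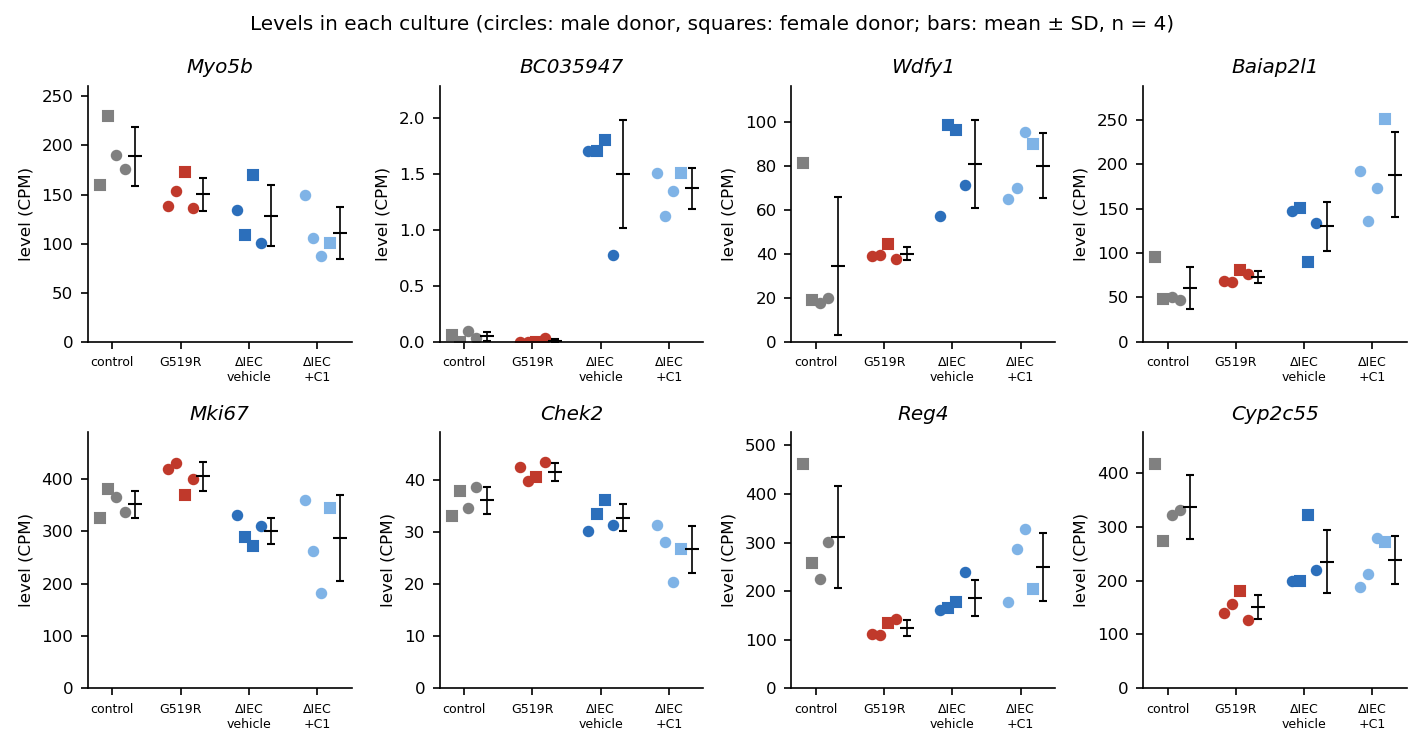
Levels of 8 genes in CPM in each culture of the 4 groups, with circles for male and squares for female donors and bars for mean ± SD (n = 4); ΔIEC +C1 is MYO5BΔIEC given Compound-1. Myo5b overlaps between MYO5B(G519R) and MYO5BΔIEC, BC035947 is near 0 outside the knockout cultures, and all MYO5B(G519R) values of Wdfy1 and Baiap2l1 lie below those of MYO5BΔIEC, while 1 control culture lies high for both genes.

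Gene lists were described by counts and medians, beside the 1.96% higher and 2.34% lower at an unadjusted p under 0.05 and the median of -0.01 over all genes. No member of any list passed the adjusted threshold in edgeR. Over the 453 different members tested, 7 were higher and 24 lower at an unadjusted p under 0.05. Of the same members 2 higher and 2 lower did not overlap between the groups, against 0.83% and 1.02% of all genes. An interval within 1 log2 unit of 0 was found for 355 (78.4%). This was so for 67.8% of all genes and for 87.8% of those with a mean of at least 1 CPM.

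The machinery that MYO5B works with had estimates from -0.35 to 0.25 log2 units. Its 24 tested genes include class V myosins, RAB11 and RAB8 proteins and their effectors, apical SNAREs and the exocyst. Of these 6 had estimates above and 18 below 0, with a median of -0.11. The interval lay within 1 log2 unit for 23 of them and within 0.5 units for 15. Rab11a, the cargo-vesicle GTPase that recruits the motor, was at 99.6, 104, 107 and 105 CPM in MYO5B(G519R) and at 96.4, 121, 145 and 102 CPM in MYO5BΔIEC enteroids. The MYO5B(G519R) values of Rab11a lay inside the MYO5BΔIEC range, with a log2 difference of -0.17 (SE 0.13). The related motors Myo5a and Myo5c had log2 differences of -0.23 (SE 0.24) and 0.07 (SE 0.10), Rab8a, which acts with RAB11A in apical delivery, 0.00 (SE 0.09), and Stx3, the apical t-SNARE, -0.18 (SE 0.10). Pard6b, a polarity protein that binds CDC42, was the 1 member at an unadjusted p under 0.05, at 96.5, 101, 138 and 103 CPM against 135, 136, 140 and 141 CPM. For Pard6b, G519R culture 3 lay among the MYO5BΔIEC cultures and the other 3 below them, with a log2 difference of -0.33. Exoc4, an exocyst subunit, had the largest estimate of the list, -0.35 (SE 0.26), or -0.19 without ΔIEC culture 3, and its MYO5B(G519R) values of 59.9, 58.5, 109 and 62 CPM were again apart only in culture 3.

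Genes of the brush border had lower estimates in MYO5B(G519R) enteroids throughout. All 23 tested members were below 0, with a median of -0.35, and 3 had an unadjusted p under 0.05, Sis and Mep1a among them. Sis, which encodes sucrase-isomaltase, was at 1522, 1608, 2114 and 1029 CPM in MYO5B(G519R) and at 2365, 1705, 4245 and 1726 CPM in MYO5BΔIEC enteroids. ΔIEC culture 3 was far above the rest, G519R culture 3 lay within the MYO5BΔIEC range, and the log2 difference was -0.67 (SE 0.30). Mep1a, a meprin protease, had a log2 difference of -0.51 (SE 0.23), while Vil1, the actin bundler villin, was at -0.18 (SE 0.16). Without ΔIEC culture 3 the estimate was -0.29 for Sis and -0.27 for Mep1a.

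Transporters of the apical and basolateral membranes had the same tilt, with 18 of 20 below 0, a median of -0.42 and 5 at an unadjusted p under 0.05. Slc9a3, the sodium-proton exchanger NHE3, was at 43.4, 48.3, 62.2 and 41.8 CPM in MYO5B(G519R) and at 75.4, 59.7, 106 and 57.1 CPM in MYO5BΔIEC enteroids. Only G519R culture 3 reached into the MYO5BΔIEC range, and the log2 difference was -0.61 (SE 0.20). Slc2a2, the basolateral glucose transporter GLUT2, was at 104, 111, 160 and 68.5 CPM against 171, 131, 297 and 134 CPM, with a log2 difference of -0.72 (SE 0.29). Slc26a6, an apical anion exchanger, had -0.43, Slc6a19, the neutral amino acid transporter B0AT1, -0.56, and Slc3a1, the heavy subunit of the cystine transporter, -0.42. Slc5a1, the sodium-glucose transporter SGLT1, had -0.60 (SE 0.28) and an unadjusted p of 0.0545 in edgeR. Without ΔIEC culture 3 the estimates were -0.38 for Slc9a3, -0.38 for Slc2a2, -0.24 for Slc3a1 and -0.29 for Slc5a1.

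The 11 enterocyte markers, which share members with both lists, were all below 0, with a median of -0.41 and Sis alone at an unadjusted p under 0.05. Lct, encoding lactase, had the largest estimate, -0.79 (SE 0.52), from 38.2, 33.8, 61.2 and 13.8 CPM against 60.8, 36.8, 135 and 23.4 CPM. Both groups of Lct ranged widely, with culture 4 lowest in each, and without ΔIEC culture 3 the estimate was -0.12. Brush border, transporter and enterocyte medians were -0.27, -0.29 and -0.37 with donor sex in the fit, -0.32, -0.44 and -0.49 within male cultures, and -0.47, -0.57 and -0.58 without G519R culture 3. They were nearest to 0 at -0.15 and -0.21 without ΔIEC culture 3 for the first 2 lists, and at -0.14 without ΔIEC culture 1 for enterocytes. Without G519R culture 3 the members at an unadjusted p under 0.05 numbered 11, 12 and 4, all lower, where 6.67% of all genes were lower at that p, and without ΔIEC culture 3 they numbered 0, 1 and 0, where 1.04% of all genes were.

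Genes of cell division went the other way. All 15 proliferation genes had estimates above 0, with a median of 0.34 and Mki67, Top2a and Cdk1 at an unadjusted p under 0.05. Top2a, the topoisomerase that untangles replicated chromosomes, was at 525, 511, 408 and 500 CPM in MYO5B(G519R) and at 402, 341, 322 and 451 CPM in MYO5BΔIEC enteroids. Cdk1, the kinase that drives mitosis, was at 111, 106, 78 and 108 CPM against 79.1, 75.5, 64.1 and 94.1 CPM. In both genes G519R culture 3 was the lowest of its group and ΔIEC culture 4 the highest of the other, and the log2 difference was 0.36 (SE 0.14) for each. With donor sex in the fit all 15 stayed above 0 with a median of 0.22, and within male cultures 13 were above 0 with a median of 0.15. Without G519R culture 3 the median was 0.43 and 8 members were higher at an unadjusted p under 0.05, as were 5.87% of all genes, and without ΔIEC culture 3 the median was 0.19 with 1 such member, beside 1.06% of all genes.

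Promoters of the 3 members at an unadjusted p under 0.05 are shown, since proliferation genes are known for paired CCAAT boxes bound by the factor NF-Y. The sequences are those of RefSeq on GRCm38.p6, from 250 bases before to 50 bases after the start, on the gene's own strand, and capitals mark CCAAT on either strand (ATTGG is its reverse). Mki67 lies at chr7:135716330-135716629, Top2a at chr11:99024140-99024439 and Cdk1 at chr10:69352863-69353162, each on the minus strand.
Mki67: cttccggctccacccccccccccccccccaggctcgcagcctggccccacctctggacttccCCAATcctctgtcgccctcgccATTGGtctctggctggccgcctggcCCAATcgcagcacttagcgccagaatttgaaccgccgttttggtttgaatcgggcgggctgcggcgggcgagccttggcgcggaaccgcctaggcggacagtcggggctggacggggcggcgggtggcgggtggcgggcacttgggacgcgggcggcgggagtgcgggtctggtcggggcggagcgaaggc
Top2a: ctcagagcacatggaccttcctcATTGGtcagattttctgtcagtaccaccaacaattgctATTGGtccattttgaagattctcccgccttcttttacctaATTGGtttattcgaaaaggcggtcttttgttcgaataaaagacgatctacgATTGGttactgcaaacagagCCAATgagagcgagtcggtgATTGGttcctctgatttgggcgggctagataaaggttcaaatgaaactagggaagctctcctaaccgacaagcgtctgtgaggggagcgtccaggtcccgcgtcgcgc
Cdk1: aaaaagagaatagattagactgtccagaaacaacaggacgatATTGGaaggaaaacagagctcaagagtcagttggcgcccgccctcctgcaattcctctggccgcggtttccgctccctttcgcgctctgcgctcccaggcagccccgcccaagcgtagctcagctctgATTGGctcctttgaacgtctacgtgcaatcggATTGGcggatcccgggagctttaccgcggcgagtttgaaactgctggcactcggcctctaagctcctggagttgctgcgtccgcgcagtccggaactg
Mki67 held 3 matches, Top2a 6 and Cdk1 3. CCAAT was found in 11 of the 13 proliferation promoters in the table (84.6%), against 41.1% of the promoters of all 27025 genes, as a description of the letters alone.

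Crypt stem cell markers were spread on both sides, with 7 of 10 above 0 and a median of 0.26, none at an unadjusted p under 0.05. Lgr5, the receptor that marks crypt stem cells, was at 272, 256, 211 and 161 CPM in MYO5B(G519R) and at 219, 215, 210 and 167 CPM in MYO5BΔIEC enteroids, and the groups overlapped almost wholly (log2 difference 0.15, SE 0.17). Olfm4, a secreted stem cell marker, had the largest estimate, 0.64 (SE 0.45), from 1282, 1190, 573 and 1800 CPM against 1292, 396, 318 and 1099 CPM. Its low values were those of G519R culture 3 and ΔIEC cultures 2 and 3, the cultures from female donors.

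Targets of p53 were all below 0 in MYO5B(G519R) enteroids. The 14 members had a median of -0.52, with 3 at an unadjusted p under 0.05: Cdkn1a, Fas and Sesn2. Cdkn1a, the cell cycle inhibitor p21, was at 307, 292, 459 and 226 CPM in MYO5B(G519R) and at 343, 541, 591 and 411 CPM in MYO5BΔIEC enteroids. The G519R culture 3 value exceeded those of ΔIEC cultures 1 and 4, and the log2 difference was -0.56 (SE 0.23). Fas, a death receptor, had a log2 difference of -0.82 (SE 0.32) and Sesn2, a stress-induced inhibitor of mTORC1 signaling, -0.54 (SE 0.23). Trp53inp1, which promotes autophagy and cell death, was at 51.2, 51.6, 138 and 46.3 CPM against 51.5, 173, 192 and 128 CPM, with a log2 difference of -0.92 (SE 0.43). Here ΔIEC culture 1 sat with 3 MYO5B(G519R) cultures and G519R culture 3 with the other MYO5BΔIEC cultures. Mdm2, the ubiquitin ligase that restrains p53, had the same arrangement (log2 difference -0.56, SE 0.27). The median of the list was -0.34 with donor sex in the fit, -0.38 within male cultures and -0.77 without G519R culture 3, where 9 members had an unadjusted p under 0.05, beside 6.67% of all genes on the lower side. With each culture left out it ranged from -0.77 to -0.34, and without G519R culture 4 no member had such a p (1.27% of all genes were lower at it). Fas was at -0.40 without ΔIEC culture 3.

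Of 26 tested interferon response genes 23 were below 0, with a median of -0.33, none had an unadjusted p under 0.05, and the median SD of a member's log2 level was 0.58 in MYO5B(G519R) and 0.57 in MYO5BΔIEC enteroids. Ifit3, an interferon-induced antiviral protein, was at 2, 5, 4.51 and 0.332 CPM in MYO5B(G519R) and at 4.85, 9.86, 7.29 and 0.69 CPM in MYO5BΔIEC enteroids. Culture 4 was lowest in each group, and the log2 difference was -0.94 (SE 0.75). Trim30a, an interferon-induced ubiquitin ligase family member, had the largest estimate, -1.13 (SE 0.82), and Isg15, a ubiquitin-like antiviral modifier, had -0.33 (SE 0.60). The median was -0.18 with donor sex in the fit and -0.76 without G519R culture 3, and it ranged from -0.76 to -0.13 with each culture left out, where the value nearest to 0 was that without G519R culture 4.

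The promoter of Ifit3 is shown for the interferon-stimulated response element, whose core is GAAA, any 2 bases and GAAA again. The RefSeq window lies at chr19:34583279-34583578 on the plus strand of GRCm38.p6, and capitals mark the motif on either strand.
Ifit3: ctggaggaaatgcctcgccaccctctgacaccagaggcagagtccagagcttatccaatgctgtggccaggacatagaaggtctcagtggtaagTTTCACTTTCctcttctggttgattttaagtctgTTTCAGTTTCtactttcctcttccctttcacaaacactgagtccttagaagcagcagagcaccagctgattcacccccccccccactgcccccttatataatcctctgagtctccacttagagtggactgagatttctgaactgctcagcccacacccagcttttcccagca
It held 2 matches. The motif was found in 15 of 20 interferon promoters in the table (75%), in 3.99% of the promoters of all 27025 genes and in 0 of 13 proliferation promoters, while CCAAT was found in 7 of the 20 interferon promoters (35%).

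**Figure D4:**
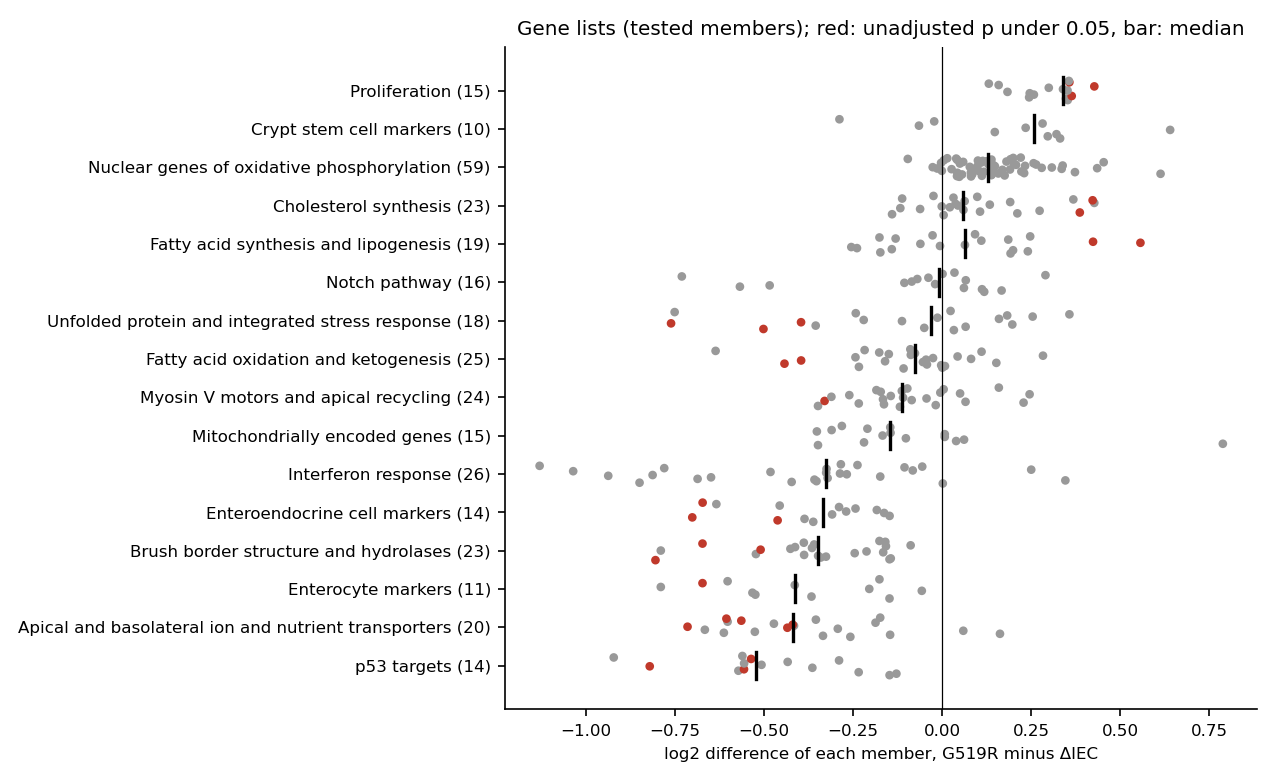
Each point is a tested member of 1 of 16 gene lists, placed by its log2 difference MYO5B(G519R) minus MYO5BΔIEC; red marks an unadjusted p under 0.05, black bars mark medians and the numbers in parentheses count members. Proliferation lies right of 0 (median 0.34), while brush border, enterocyte, transporter and p53 lists lie left of it (medians -0.35, -0.41, -0.42 and -0.52).

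These lists followed the first principal component, along which the cultures from female donors had positive scores. Of autosomal members, 26 of 26 interferon genes, 12 of 13 p53 targets, 21 of 22 brush border genes, 11 of 11 enterocyte markers, 7 of 7 Paneth cell markers and 17 of 20 transporters had a positive loading, against 51.7% of all genes. Proliferation had 0 of 15 and nuclear genes of oxidative phosphorylation 7 of 57. In each culture the median deviation of the proliferation genes from their mean over the 8 cultures was 0.20, 0.17, -0.09 and 0.38 in MYO5B(G519R) and -0.01, -0.26, -0.48 and 0.23 in MYO5BΔIEC enteroids, on the log2 scale. For p53 targets it was -0.42, -0.41, 0.29 and -0.45 in MYO5B(G519R) and -0.44, 0.60, 0.60 and 0.29 in MYO5BΔIEC enteroids. In both lists G519R culture 3 lay on the same side of 0 as ΔIEC cultures 2 and 3, while ΔIEC culture 1 lay with the MYO5B(G519R) cultures for p53 targets. With 1 female donor in one group and 2 in the other, the part that donor sex and differentiation state of single cultures had in these medians was not tested beyond the values given.

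**Figure D5:**
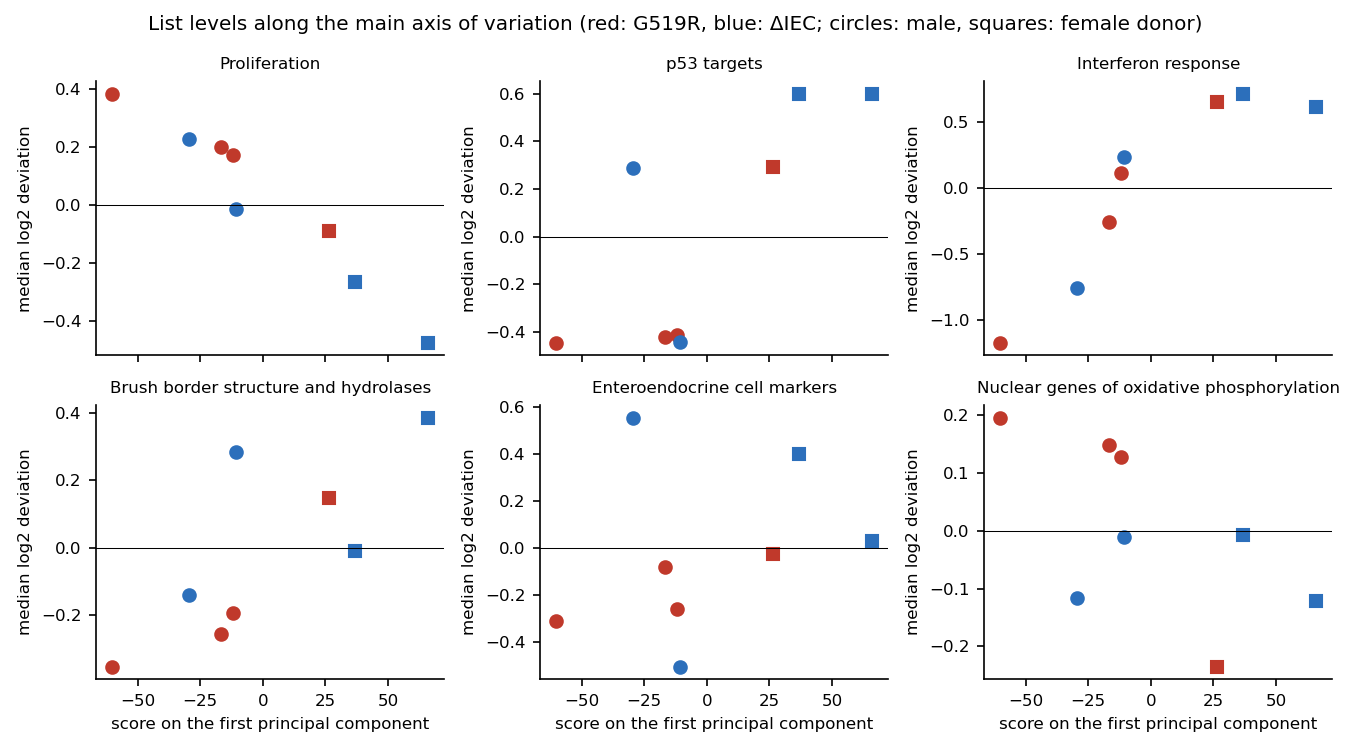
The median log2 deviation of 6 gene lists in each culture is plotted against its score on the first principal component; red is MYO5B(G519R), blue is MYO5BΔIEC, circles are male and squares female donors. Proliferation is lower and p53, interferon and brush border lists are higher toward positive scores, in cultures of both genotypes.

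Secretory lineages were as follows. All 14 enteroendocrine markers had estimates below 0, with a median of -0.34 and Gcg, Chga and Tph1 at an unadjusted p under 0.05. Gcg, the gene of proglucagon, was at 116, 86.6, 121 and 110 CPM in MYO5B(G519R) and at 105, 161, 204 and 238 CPM in MYO5BΔIEC enteroids. ΔIEC culture 1 lay within the MYO5B(G519R) range and the other 3 above it, with a log2 difference of -0.70 (SE 0.22). Chga, encoding the granule protein chromogranin A, had -0.46 (SE 0.20) and Tph1, which starts serotonin synthesis, -0.67 (SE 0.29). The list median was -0.39 without G519R culture 3 and -0.32 with donor sex in the fit, and it ranged from -0.52 to -0.25 with each culture left out. Tph1 was at -0.44 without ΔIEC culture 4.

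Paneth cell markers were below 0 in 7 of 7 members with a median of -0.14. Ang4, a secreted antimicrobial ribonuclease, had a log2 difference of -0.56 (SE 0.25) with an unadjusted p of 0.0463 in edgeR, and Lyz1, lysozyme, had -0.14 (SE 0.19). Goblet cell markers were above 0 in 5 of 8 members with a median of 0.03, and Muc2, the main mucin of the small intestine, was at 84.8, 75.2, 129 and 119 CPM against 110, 104, 130 and 147 CPM. The groups of Muc2 overlapped, and its log2 difference was -0.27 (SE 0.18). Tuft cell markers were above 0 in 8 of 11 tested members with a median of 0.21, none at an unadjusted p under 0.05. Pou2f3, the transcription factor that specifies tuft cells, had 0.29 (SE 0.29), or 0.06 without G519R culture 4, and Dclk1, a tuft cell kinase, 0.03 (SE 0.27), both from fewer than 10 CPM in each of the 8 cultures.

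Genes of energy metabolism had small median differences in the fit of all 8 cultures, while counts at an unadjusted p under 0.05 depended on the cultures kept. Nuclear genes of oxidative phosphorylation were above 0 in 54 of 59 members but with a median of 0.13 and none at an unadjusted p under 0.05, and 58 of them had an interval within 1 log2 unit. The 54 became 45, with a median of 0.07, when the trend of the difference on gene length was taken out, a trend with a Spearman correlation of -0.161 across 13513 genes. Without G519R culture 3 they were 58, with 19 higher at an unadjusted p under 0.05, where 5.87% of all genes were, and within male cultures 58, with 22, where 3.71% of all genes were. With each culture left out the median ranged from 0.07 to 0.22. Atp5k, a small subunit of ATP synthase, had the largest estimate, 0.61 (SE 0.34), which was 0.37 without ΔIEC culture 3. The 15 mitochondrially encoded genes had a median of -0.15, with 10 below 0 and none at an unadjusted p under 0.05, and the largest estimate, 0.79 for mt-Atp8, came from under 3 CPM in all 8 cultures.

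Lipid genes were mixed. In fatty acid oxidation and ketogenesis 18 of 25 members were below 0, with a median of -0.08 and 2 at an unadjusted p under 0.05, Crat among them. Crat, carnitine acetyltransferase, was at 42.8, 50.3, 57.8 and 44 CPM in MYO5B(G519R) and at 72.5, 48.1, 79.1 and 57.2 CPM in MYO5BΔIEC enteroids. ΔIEC cultures 2 and 4 lay below G519R culture 3, so the groups overlapped, and the log2 difference was -0.40 (SE 0.16).

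Lipogenesis had 10 of 19 members above 0, a median of 0.06 and 2 members at an unadjusted p under 0.05, both desaturases of polyunsaturated fatty acids. Fads1 was at 218, 212, 131 and 186 CPM against 171, 122, 91.4 and 122 CPM, with a log2 difference of 0.56 (SE 0.20), and Fads2 had 0.42 (SE 0.14). G519R culture 3 was the lowest of its group for both. Fasn, fatty acid synthase, had 0.11 (SE 0.15), and Slc27a3, an acyl-CoA synthetase of the fatty acid transport family, -0.03 (SE 0.26). Cholesterol synthesis genes were above 0 in 17 of 23 members with a median of 0.06. Of these 2 had an unadjusted p under 0.05, among them Ebp, a sterol isomerase, with 0.39 (SE 0.15), and Mvd, mevalonate decarboxylase, had the largest estimate, 0.43 (SE 0.21). All 23 intervals of this list lay within 1 log2 unit.

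Stress genes had medians near 0. The unfolded protein and integrated stress responses had 8 of 18 members above 0 and a median of -0.03, with Ddit3, Atf3 and Dnajb9 lower at an unadjusted p under 0.05. Ddit3, the stress factor CHOP, was at 17, 18.2, 14.1 and 12.4 CPM in MYO5B(G519R) and at 19.6, 16, 17.4 and 51.7 CPM in MYO5BΔIEC enteroids. Its log2 difference of -0.76 (SE 0.34) rests on ΔIEC culture 4, without which it was -0.19, the other 3 being close to MYO5B(G519R). Atf3, a stress-induced transcription factor, was at 14.1, 13.5, 14.8 and 12.7 CPM against 16.1, 15.7, 18.9 and 27.4 CPM, without overlap, and had -0.50 (SE 0.18), or -0.29 without ΔIEC culture 4. Dnajb9, a chaperone of the endoplasmic reticulum, had -0.40 (SE 0.17), or -0.25 without ΔIEC culture 3. The chaperone list, made up mostly of cytosolic chaperones but with mitochondrial ones too, had a median of 0.10, with 11 of 15 above 0. Hspe1, the mitochondrial co-chaperonin, had the largest estimate, 0.28 (SE 0.15). Lysosome and autophagy genes had a median of -0.10, with 17 of 25 below 0 and all intervals within 1 log2 unit. Lamp1, a lysosomal membrane protein, had -0.31 (SE 0.14) with an unadjusted p of 0.0402 in edgeR, and Sqstm1, the autophagy receptor p62, -0.36 (SE 0.21). Lamp1 was at -0.19 without ΔIEC culture 3, and Sqstm1 rests on ΔIEC culture 4, without which it was -0.09.

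Regional and regenerative genes gave no clear order. Fetal and regenerative genes had 7 of 11 tested members below 0 and a median of -0.24. Areg, an EGF receptor ligand, was at 155, 173, 204 and 160 CPM in MYO5B(G519R) and at 190, 247, 330 and 257 CPM in MYO5BΔIEC enteroids, with overlap between G519R culture 3 and ΔIEC culture 1 and a log2 difference of -0.56 (SE 0.16). The related ligand Ereg had -0.61 (SE 0.29). Proximal genes had a median of -0.06 over 7 members, with the widest estimate for Pdx1, a duodenal transcription factor, at 0.55 (SE 0.62) and 0.07 without G519R culture 3, and ileal genes -0.17 over 4, with Slc10a2, the ileal bile acid transporter, at -0.61 (SE 0.38) and -0.26 without ΔIEC culture 3. Epithelial chemokines had 6 of 8 tested members below 0 and a median of -0.16, with Ccl20, which attracts CCR6-bearing lymphocytes, at -0.45 (SE 0.22), Ccl25, which attracts gut-homing lymphocytes, at -0.17 (SE 0.13) and Ccl9 at 0.45 (SE 0.23).

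The genes that the study names for its enteroids gave 29 more estimates, and since it picked them from these same cultures they are not independent of them. Of these 9 were above and 20 below 0, with a median of -0.10. At an unadjusted p under 0.05 there was 1, against 4.3% of all genes. Without overlap there were 0, against 0.83% of all genes higher and 1.02% lower. An interval within 1 log2 unit was found for 18, against 67.8% of all genes. The 1 study gene at an unadjusted p under 0.05 was Fat2, an atypical cadherin. Its level was 0.478, 0.355, 1.66 and 0.302 CPM in MYO5B(G519R) and 1.26, 2.28, 1.77 and 1.98 CPM in MYO5BΔIEC enteroids. G519R culture 3 again lay among the MYO5BΔIEC cultures, and the log2 difference was -1.37 (SE 0.51). Its relative Fat1 had -0.28 (SE 0.21). Mcam, an adhesion molecule of the immunoglobulin family, was at 18.1, 14.5, 56.9 and 19.4 CPM against 16.9, 81.3, 62.6 and 56.9 CPM, a range of several fold in each group, with a log2 difference of -1.001 (SE 0.495).

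Tight junction genes had log2 differences of -0.25 (SE 0.14, Cldn4) and -0.22 (SE 0.13, Cldn23), and the actin regulator Inf2 -0.35 (SE 0.25). Basement membrane genes were not resolved: Col4a1 had 0.16 (SE 0.52), Col4a2 0.46 (SE 0.51) and the proteoglycan gene Hspg2 -0.01 (SE 0.22), with Plaur, the urokinase receptor, at -0.10 (SE 0.17). The Notch pathway, which holds crypt cells back from secretory fates, had 8 of 16 tested members above 0 and a median of -0.01. Its receptors had -0.07 (SE 0.14, Notch1), -0.04 (SE 0.13, Notch2) and -0.73 (SE 0.54, Notch3, or -0.28 without ΔIEC culture 2), its ligand Jag1 -0.48 (SE 0.24) and its coactivator Maml2 -0.09 (SE 0.38). Receptors of lysophosphatidic acid had a median of -0.18 over 5 tested members. Lpar5, the target of Compound-1, was at 20.8, 24.1, 20.8 and 22.8 CPM in MYO5B(G519R) and at 31, 20, 25.9 and 23.4 CPM in MYO5BΔIEC enteroids, and the MYO5B(G519R) values lay within the other range (log2 difference -0.18, SE 0.14). Lpar2 had -0.18 (SE 0.12) and Lpar6 0.06 (SE 0.16). Nox1, an NADPH oxidase, had 1.30 (SE 0.67), resting on G519R culture 4 at 8.11 CPM against 0.976 to 1.79 CPM in the others of its group and 0.15 without it, Ldhb, a lactate dehydrogenase subunit, -0.68 (SE 0.47), or -0.40 without ΔIEC culture 2, and Nlrp1b 0.31 (SE 1.05).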

How the data were processed

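RNA of 16 mouse jejunal enteroid cultures was sequenced, and the 4 MYO5B(G519R) and 4 MYO5BΔIEC cultures without Compound-1 were compared. The authors made poly-A libraries, aligned the reads to GRCm38 (mm10), with STAR 2.5 and TopHat named in the submitters' processing notes, and counted reads per gene with HTSeq 0.6.1. The deposited counts of 54532 genes, not normalized, were used as they are. The deposited FPKM, which the authors made by dividing counts by gene length and library size, served as an alternative alone. How strand and reads with several positions were treated is not given in the sources used here, so close paralogs, pseudogenes and antisense genes are uncertain.

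The test was the quasi-likelihood F test of edgeR 4.0.16, run under R 4.3.3 on genes that reached 10 counts in 2 or more of the 8 cultures (TMM scaling, two-sided, Benjamini-Hochberg over the 17943 tested genes, threshold 0.05). Differences are MYO5B(G519R) minus MYO5BΔIEC on the log2 scale. Their SE is the estimate divided by the root of F, and intervals are at 95%. Levels are counts per 1000000 reads (CPM) on 1 TMM scale over the 16 cultures, and CPM are not corrected for gene length. Donor sex was read from Xist and Y-linked counts. The scripts were tested on simulated data. The alternatives used DESeq2 1.42.0, limma 3.58.1 on log2(FPKM + 1) and log2(FPKM + 0.1), other normalizations and filters, donor sex, the replicate number, gene length, all 4 groups, and each culture left out. The male cultures alone were added after the data were seen.

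Genes were named by rule: Myo5b, every gene past the adjusted threshold, the 10 higher and 10 lower with the smallest p among genes without overlap and at least 1 CPM, the largest estimate of each list at that level, and the genes the study names for its enteroids. List members at an unadjusted p under 0.05, the neighbours of BC035947 and Myo5b, Rpl26, Gm10020 and other list members given as examples (Myo5a, Myo5c, Rab8a, Rab11a, Stx3, Vil1, Slc5a1, Lgr5, Mdm2, Ifit3, Isg15 and Lyz1) were chosen after their values were seen. The comparison, its members and the lists were chosen with earlier results of these data known. A few genes that the rule or a list would name are not reported here by name, and counts over lists include them. The cultures came from separate mice. Intervals of counts cover counting error only.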

Additional observations from a re-analysis of the deposited data

Results flagged for a closer look

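Single cultures far from the other 3 of their group were looked for by Dixon's test at the 95% level. Of 228 groups examined 32 held such a culture, and 20 of the 32 were G519R culture 3. For independent groups taken without regard to their values, chance would give about 1 in 20 (11.4). The genes were those named here, many of them for their values in these cultures, and many vary together. The 32 therefore cannot be weighed against 11.4.

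G519R culture 3 was above the other 3 MYO5B(G519R) cultures in genes of the p53 response, adhesion and stress, each given in CPM: Trp53inp1 at 138 against 46.3 to 51.6, Mdm2 at 129 against 66.7 to 72.4, Sesn2 at 65.1 against 37.5 to 40.4, Mcam at 56.9 against 14.5 to 19.4, Fat2 at 1.66 against 0.302 to 0.478 and Cldn4 at 336 against 254 to 268. It was also above them in Jag1 at 51.3 against 27.5 to 29.2, Notch2 at 39.5 against 29.8 to 31.2, Ereg at 44.8 against 20.5 to 22.7, Exoc4 at 109 against 58.5 to 62 and Pard6b at 138 against 96.5 to 103. Lyz1 was at 1635 against 1039 to 1139, Lamp1 at 587 against 476 to 486, Slc10a2 at 7.7 against 2.6 to 3.41, Ldhb at 3.48 against 1.3 to 1.54 and Xist at 1289 against 0.241 to 0.917. It was below them in Cdk1 at 78 against 106 to 111, Mvd at 97.9 against 122 to 124, Fads2 at 151 against 194 to 196 and Glt1d1 at 5.71 against 7.78 to 7.94. It was the only MYO5B(G519R) culture from a female donor, so donor sex and other features of that culture cannot be told apart.

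In the other cultures, BC035947 was at 0.0302 CPM in G519R culture 4 against 0 in the other 3. That value is 1 read and lies below the level that a count of 0 allows, so it is within counting error. The gene was at 0.781 CPM in ΔIEC culture 4 against 1.71 to 1.8. ΔIEC culture 4 also stood apart in Ddit3 (51.7 against 16 to 19.6 CPM), Sqstm1 (348 against 178 to 202) and Lgr5 (167 against 210 to 219), and ΔIEC culture 3 in Fas (22.7 against 8.75 to 10.4), Lamp1 (778 against 576 to 588) and Rpl17 (144 against 318 to 335). Nox1 was at 8.11 CPM in G519R culture 4 against 0.976 to 1.79, and Vwf at 1.61 in G519R culture 1 against 1.21 to 1.24. Gm10020 was at 49.5 CPM in G519R culture 1 against 0.68 to 1.51 and at 44.2 in ΔIEC culture 1 against 0.629 to 0.991.

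Genes of the Y chromosome served above to read donor sex and were not compared by name between the groups. They were above 0 in G519R culture 3 although it expressed Xist: Eif2s3y at 1.2 CPM, Ddx3y at 0.544, Uty at 0.49 and Kdm5d at 0.19. They were at 0 in the other female cultures, ΔIEC cultures 2 and 3, and their sum was 1.45% of the mean over the 5 male cultures. The source of these reads was not tested.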

How the results depend on the processing

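The count of genes past the adjusted threshold, 1 as reported, was 4 in DESeq2 (BC035947, Gm12751, Wdfy1 and Baiap2l1), 2 without a count filter, 0 in both fits of limma to FPKM, with 768 (pseudocount 1) and 778 genes (pseudocount 0.1) at an unadjusted p under 0.05, and 0 to 2 with each culture left out. It was 1 under the other alternatives, and that gene was BC035947 except within male cultures, where it was Rpl26 (log2 difference 4.74, adjusted p = 4e-05). Over all alternatives with a test the adjusted p of BC035947 ranged from 4.86e-07 to 0.503. The count at an unadjusted p under 0.05, 772 as reported, was 1504 without a filter, 464 with all 4 groups in 1 fit, 1282 within male cultures and 325 to 2214 with each culture left out. It was 2214 without G519R culture 3, 1445 and 1239 without ΔIEC cultures 4 and 1, and 325, 325, 383 and 373 without G519R cultures 1, 2 and 4 and ΔIEC culture 3. The cause was not tested.

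With the replicate number as a block 2532 genes had an unadjusted p under 0.05, and BC035947 alone passed the adjusted threshold (adjusted p = 0.0491). These 2532 are 14.1% of the genes tested, against 4.3% without the block. At the same p the block moved brush border genes from 3 to 14 of 23, transporters from 5 to 15 of 20, enterocyte markers from 1 to 5 of 11, p53 targets from 3 to 8 of 14 and interferon genes from 0 to 10 of 26, all lower, and proliferation genes from 3 to 12 of 15, stem cell markers from 0 to 6 of 10 and oxidative phosphorylation from 0 to 12 of 59, all higher. The deviations of same-numbered cultures correlated at 0.102, 0.0342, 0.302 and 0.42, all above 0 but not all over 0.1. G519R cultures 1, 3 and 4 correlated best with the ΔIEC culture of their own number, and G519R culture 2 with ΔIEC culture 1. The sources used here do not describe the numbers as pairs, so they were not taken as a pairing. Whether same-numbered cultures share a batch was not tested.

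Estimates near 0 changed sign. Hspg2 was 0.0080 without a filter, 0.036 with the block, 0.16 with donor sex, 0.025 and 0.034 in limma with pseudocounts of 1 and 0.1, 0.051 with the length offset and 0.30 within male cultures. With donor sex Maml2 was 0.092, Slc27a3 0.094 and Gm10020 -0.32, and Rab8a was 0.0095 without a filter. Within male cultures Col4a1 was -0.52, Col4a2 -0.24, Gm10020 -0.39 and Rab11a 0.049. With each culture left out Col4a1 ranged from -0.13 to 1.05, Dclk1 from -0.11 to 0.30, Fasn from -0.0078 to 0.22, Gm10020 from -3.54 to 4.04, Hspg2 from -0.14 to 0.26, Isg15 from -0.68 to 0.074, Lpar6 from -0.0068 to 0.20, Maml2 from -0.39 to 0.15, Nlrp1b from -0.10 to 1.29, Notch1 from -0.13 to 0.053, Notch2 from -0.14 to 0.022, Rab8a from -0.033 to 0.049 and Slc27a3 from -0.25 to 0.17. The mitochondrially encoded share differed by -0.917 to -0.0917 percentage points with each culture left out. Genes under 1 CPM are limited by depth.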
